A study of Mus musculus with 37 samples.

Results

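The clustered protocadherins were examined in the translatomes of ventral midbrain dopamine and GABA neurons of young and old mice. Members were taken from the count tables by symbol, as Pcdha or Pcdhac, Pcdhb and Pcdhg followed by a number, which gave 58 of 57180 genes. These were 14 genes of the alpha cluster, 22 of the beta cluster and 22 of the gamma cluster. Ribosome-bound RNA was collected by translating ribosome affinity purification (TRAP), the pull-down of a GFP-tagged ribosomal protein (L10a), from ventral midbrain tissue that holds the substantia nigra pars compacta and ventral tegmental area. In DAT;NuTRAP mice the tag was switched on by Cre from the dopamine transporter gene (DAT-IREScre), and in VGAT;NuTRAP mice by Cre from the vesicular GABA transporter gene (Vgat-ires-cre, C57BL/6J). All mice of both models carried the same floxed NuTRAP reporter, and every library analysed here was a pull-down. The Young groups were 7 to 10.5 months old and the Old groups 21 months old, except 1 VGAT;NuTRAP female of 24 months. There were 10 Young (5 females and 5 males) and 9 Old (4 females and 5 males) DAT;NuTRAP mice, and 10 Young (6 females and 4 males) and 8 Old (5 females and 3 males) VGAT;NuTRAP mice, with 1 library per mouse.

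Clustered protocadherins are cell adhesion molecules with cadherin repeats that bind the same isoform on a neighbouring membrane. Each neuron is known to use a small set of promoters in each cluster, chosen largely at random, and the resulting combination of isoforms serves as a surface identity by which the neurites of a cell recognise each other. Each alpha and gamma gene is a variable first exon that carries its own promoter and is spliced to constant exons shared by the whole cluster, which encode the cytoplasmic tail. Beta genes are mostly single exons and have no such shared tail. The last alpha genes (Pcdhac1 and Pcdhac2) and the last gamma genes (Pcdhgc3, Pcdhgc4 and Pcdhgc5) form the C-type, which is expressed more evenly among neurons than the other isoforms. In bulk RNA of many cells, therefore, the level of a member mixes the share of cells that use its promoter with the RNA in each, and fewer cells of a type cannot be told apart from less RNA per cell.

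All 58 members lay on the plus strand of chromosome 18 (GRCm39). The alpha cluster spanned positions 37063237 to 37320716 (257 kb), the beta cluster 37397991 to 37657532 (260 kb) and the gamma cluster 37794846 to 37975014 (180 kb). The gene structure bears on what the counts can show. The median member had 46.3% of its exonic bases shared with no other gene in the alpha cluster and 52.9% in the gamma cluster, against 100% in the beta cluster, where 18 of 22 genes were wholly unshared. Counts of alpha and gamma genes therefore rest largely on the variable first exon, and reads of the constant exons cannot be assigned to 1 member. Pcdhb9 was annotated with more than 1 exon, as its 3734 exonic bases lay between positions 37533908 and 37550127, a span that also holds Pcdhb10. Within the unshared exons, the share of 150-base windows that occurred again anywhere in the region of the 3 clusters was 1.38% for alpha, 0.0139% for beta and 0.671% for gamma. A few genes were almost without counts. Pcdha4 was at 0 in 16 of 19 DAT;NuTRAP and 9 of 18 VGAT;NuTRAP libraries, Pcdha11 in 15 and 17, and Pcdhga10 in 18 and 17. Pcdha4 overlapped Pcdha4b along 2410 bases, and Pcdhga10 had 0 unshared exonic bases. Pcdha11 had 1268 unshared of 7650 exonic bases and shared 2597 bases with the antisense gene Gm10545. The low counts of these 3 genes are therefore uncertain. Those 3 genes did not pass the filter on low counts in any comparison, and 55 members (12 alpha, 22 beta and 21 gamma) were tested.

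Total counts were 13841253 to 38235015 in DAT;NuTRAP and 19065284 to 35054329 in VGAT;NuTRAP libraries, of which the 58 members held 3426 to 12976 and 6880 to 18813. In DAT;NuTRAP mice the samples stood apart by their batch label. Their median total count was 1.85e+07 in the first and 3.02e+07 in the second batch. The 8 libraries of the first batch had counts for 19085 to 21051 genes, and the 11 of the second batch for 14323 to 18170, against 18485 to 21803 in VGAT;NuTRAP. The clustered protocadherins followed that division, with 1 to 4 members at 0 in first-batch DAT;NuTRAP libraries, 5 to 22 in second-batch DAT;NuTRAP libraries and 1 to 4 in VGAT;NuTRAP libraries. They held 0.0383 to 0.0485% of the counts in first-batch DAT;NuTRAP libraries, 0.0170 to 0.0278% in those of the second batch and 0.0356 to 0.0537% in VGAT;NuTRAP. Cluster medians, sums and the cell type differences are therefore also given by batch. Dopamine neuron markers summed to 9818 to 14411 CPM (counts scaled to a common library size) in DAT;NuTRAP and 759 to 3117 CPM in VGAT;NuTRAP, and GABA markers to 201 to 630 and 3153 to 4338 CPM, so the markers named by each label were highest in its model. Dopamine markers were not absent from VGAT;NuTRAP, where Slc6a3, the dopamine transporter, spanned 249 to 1238 CPM, against 2593 to 4259 CPM in DAT;NuTRAP.

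Protocadherins were low in both cell types, and a few members led each cluster. To compare members with each other, CPM were divided by the length of unshared exon (CPM per kb). The median member stood at 1.13 (alpha), 1.26 (beta) and 1.36 CPM per kb (gamma) in DAT;NuTRAP, and at 1.80, 1.96 and 1.87 CPM per kb in VGAT;NuTRAP. The 3 clusters were thus of similar level within a model when only unshared exon was counted. With the whole exonic length as divisor, the medians were 0.452, 1.26 and 0.552 CPM per kb in DAT;NuTRAP and 0.717, 1.71 and 0.875 in VGAT;NuTRAP, so that the beta cluster was the highest.

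In the alpha cluster the C-type gene Pcdhac2 led, with 7.89 ± 4.59 CPM per kb in DAT;NuTRAP (SD, n = 19) and 13.5 ± 1.01 in VGAT;NuTRAP (SD, n = 18). It made up 34.9% and 40.9% of the sum over the alpha members per kb. Pcdhb9 led the beta cluster with 4.92 ± 2.01 and 6.31 ± 2.17 CPM per kb, or 12.1% and 11.8% of its cluster. In the gamma cluster Pcdhgc4, the C-type gene that is known to be needed for the survival of many neurons, led with 4.96 ± 3.19 and 8.98 ± 0.975 CPM per kb, or 14.1% and 17.2%. Over both batches these 3 genes were the highest of their cluster in both models and under both lengths, whereas in second-batch DAT;NuTRAP libraries alone Pcdhb12 (4.12 CPM per kb of unshared exon) lay above Pcdhb9 (3.64). That order rests on the unshared length, which is 1107 of the 3034 exonic bases of Pcdhb12, and over its whole length Pcdhb12 was at 1.59 CPM per kb in DAT;NuTRAP. At the low end were Pcdha11, with 0.0316 and 0.00227 CPM per kb (uncertain, as said above), and Pcdhb1, with 0.273 and 0.228. The lowest gamma gene with unshared exon was Pcdhgb8 in DAT;NuTRAP (0.220 CPM per kb) and Pcdhgb5 in VGAT;NuTRAP (0.478 CPM per kb).

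**Figure D1:**
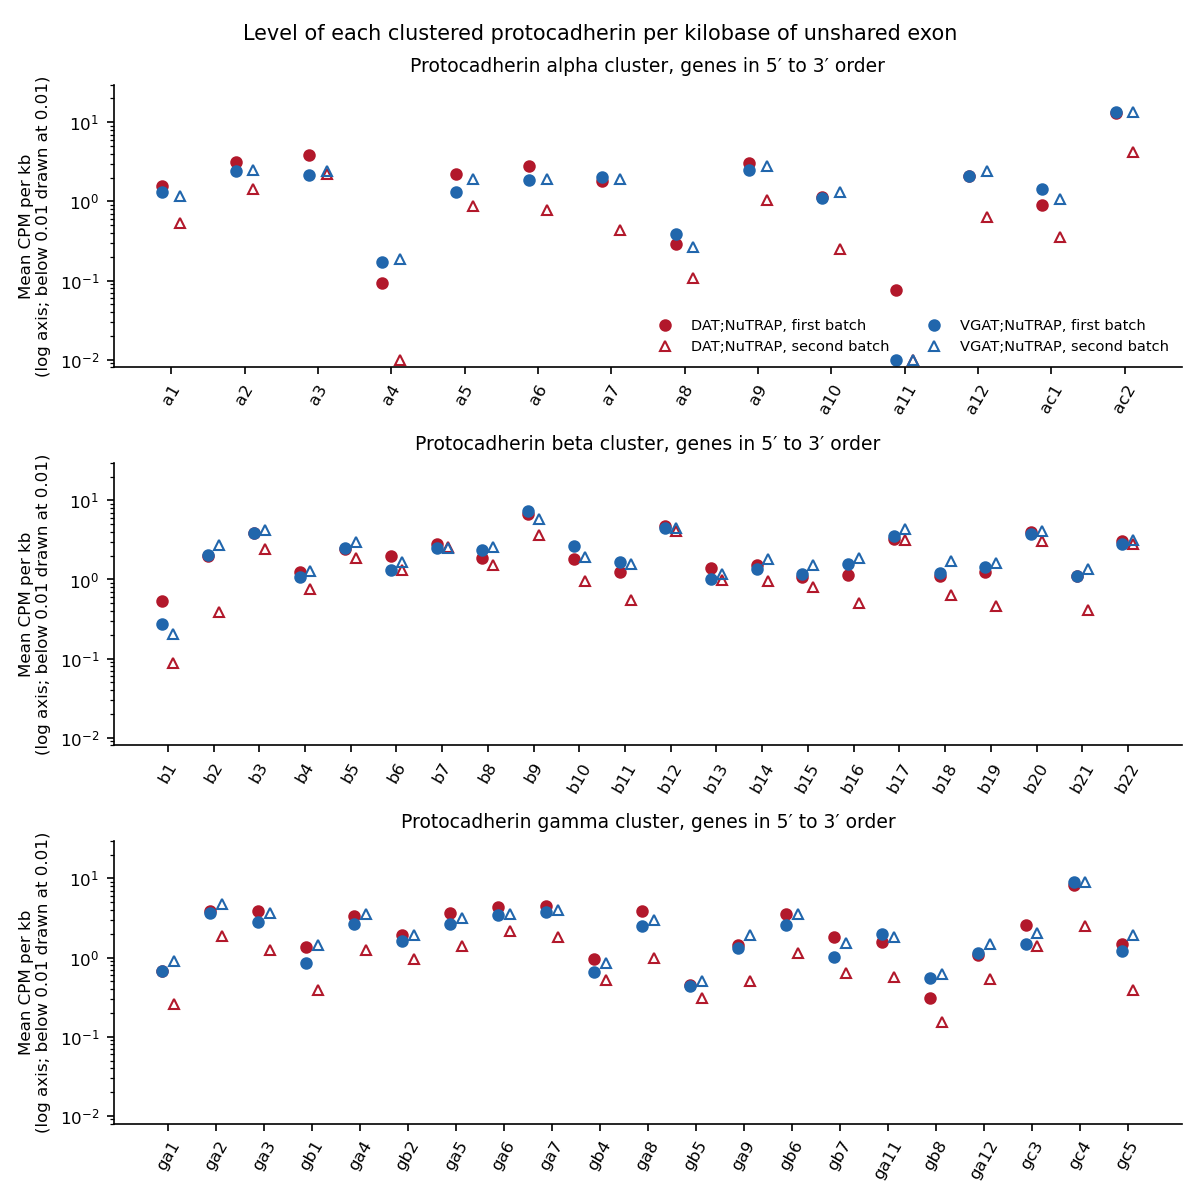
Mean CPM per kb of unshared exon of each member (log axis, with values below 0.01 drawn at 0.01) in the order of the genes along each cluster, for DAT;NuTRAP (red) and VGAT;NuTRAP (blue) and for the first (filled circles) and second batch (open triangles). Pcdhac2, Pcdhb9 and Pcdhgc4 stand highest in their clusters except that Pcdhb12 lies above Pcdhb9 in second-batch DAT;NuTRAP, and the 2 rightmost alpha and 3 rightmost gamma genes are the C-type.

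The levels of DAT;NuTRAP libraries differed by batch. In the first batch the medians per kb were 1.96, 1.85 and 1.92 CPM per kb for alpha, beta and gamma, and in the second 0.581, 0.984 and 0.946. VGAT;NuTRAP had 1.64, 1.87 and 1.60 in the first batch and 1.90, 1.90 and 1.94 in the second. Pcdhac2 was at 12.9 CPM per kb in the first and 4.23 in the second batch of DAT;NuTRAP, while VGAT;NuTRAP had 13.3 and 13.6. The medians of first-batch dopamine libraries were thus close to those of the GABA libraries, and those of second-batch dopamine libraries were lower.

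The first question was what changed with age in GABA neurons. In VGAT;NuTRAP 2 beta genes, Pcdhb9 and Pcdhb14, rose with age at an adjusted p below 0.05 (edgeR's quasi-likelihood test, with Benjamini-Hochberg adjustment over 15607 genes). The background in the same comparison was 4 genes higher in Old (0.0256% of those tested) and 0 lower, so that 2 of the 4 were clustered protocadherins. At an unadjusted p below 0.05, 12 of 22 beta, 3 of 21 gamma and 1 of 12 alpha members passed, against 5.98% of all genes tested.

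Pcdhb9 spanned 12.2 to 26.4 CPM (median 17.1) in the 10 Young VGAT;NuTRAP libraries and 24.2 to 39.1 CPM (median 30.2) in the 8 Old. The highest Young library overlapped the lowest Old. The difference was 0.88 ± 0.09 on the log2 scale (SE), or 1.84-fold, with an adjusted p of 1.31e-05 by edgeR. Pcdhb14 spanned 8.04 to 14.7 CPM (median 12.0) in Young and 14.0 to 21.2 CPM (median 18.3) in Old libraries, again with a small overlap. Its difference was 0.56 ± 0.10 log2 (1.48-fold, adjusted p = 0.0173 by edgeR). Both are beta isoforms, adhesion molecules with cadherin repeats outside the cell and a short private tail. Without batch as a term 0 members passed, with an adjusted p of 0.0731 for both genes by edgeR, and by DESeq2 4 passed, with Pcdhb13 and Pcdhb2 added. With sex as a term 3 passed, with Pcdhb2 added (adjusted p = 0.0326 by edgeR). Pcdhb14 also missed the threshold when Old female VGAT;NuTRAP library 3 (adjusted p = 0.0513 by edgeR) or Young female library 5 (adjusted p = 0.0600 by edgeR) was left out.

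Pcdhb13 and Pcdhb2 had the next smallest p in the cluster but did not pass the threshold. Pcdhb13 spanned 2.07 to 3.99 CPM (median 3.24) in Young and 4.56 to 7.64 CPM (median 5.03) in Old VGAT;NuTRAP libraries, a difference of 0.74 ± 0.15 log2 (adjusted p = 0.151 by edgeR). Its groups did not overlap, and it was the single gene of the 15607 tested for which all Old libraries lay above all Young ones (0.00641%). Pcdhb2 spanned 2.69 to 6.98 CPM (median 5.42) in Young and 4.39 to 13.7 CPM (median 10.5) in Old, a difference of 0.82 ± 0.21 log2 with overlapping groups (adjusted p = 0.424 by edgeR).

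Over the whole beta cluster, 21 of 22 genes had a higher estimate in Old VGAT;NuTRAP mice, with a median difference of 0.38 log2, whereas 49.5% of all genes tested did, with a median of 0.00. The beta genes were not alike. Pcdhb16 (0.01 ± 0.10) and Pcdhb17 (-0.02 ± 0.10) had estimates near 0, while Pcdhb6 (0.58 ± 0.17), Pcdhb4 (0.48 ± 0.26) and Pcdhb8 (0.47 ± 0.14) were near the upper end. The 22 genes were measured in the same libraries and are not replicates of each other.

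In the alpha cluster 10 of 12 tested members had a higher estimate in Old VGAT;NuTRAP mice, with a median of 0.10 log2, and in the gamma cluster 17 of 21, with a median of 0.10 log2. The batches differed in this. Of 12 alpha members, 6 were higher in Old in both batches, 5 in the second alone and 1 in the first alone. Of 21 gamma members the numbers were 8, 10 and 1. No alpha or gamma member passed the adjusted threshold. The alpha member with the smallest p, Pcdha5, was at 3.43 ± 0.921 CPM in Young (SD, n = 10) and 4.69 ± 0.931 CPM in Old (SD, n = 8), a difference of 0.39 ± 0.15 log2. Pcdha10 was at 2.79 ± 0.790 and 3.62 ± 1.30 CPM (0.35 ± 0.22 log2), and Pcdha2 at 5.85 ± 0.803 and 6.56 ± 1.01 CPM (0.17 ± 0.12 log2). In the gamma cluster Pcdhga2 was at 9.89 ± 1.44 CPM in Young and 13.6 ± 3.51 CPM in Old (0.42 ± 0.12 log2). Pcdhga1 was at 1.93 ± 0.722 and 2.92 ± 0.583 CPM (0.56 ± 0.22 log2), Pcdhga4 at 4.38 ± 1.39 and 5.96 ± 1.31 CPM (0.40 ± 0.18 log2) and Pcdhga6 at 8.55 ± 1.91 and 10.2 ± 1.68 CPM (0.26 ± 0.14 log2). The alpha and gamma members with the largest estimates were variable isoforms rather than C-types.

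The C-type genes Pcdhac2 and Pcdhgc4 had the smallest standard errors of the 55 members. Pcdhac2, measured at 33.9 to 45.6 CPM (median 42.0) in Young and 42.1 to 46.7 CPM (median 43.2) in Old VGAT;NuTRAP libraries, differed by 0.09 ± 0.06 log2, with a 95% interval of -0.03 to 0.21. Pcdhgc4 spanned 26.5 to 39.97 CPM (median 31.5) in Young and 30.1 to 35.8 CPM (median 33.9) in Old, a difference of 0.04 ± 0.08 log2 with an interval of -0.12 to 0.20. For both, the intervals left out changes of the size found for Pcdhb9 and Pcdhb14. Pcdhac1 (0.08 ± 0.22), Pcdhgc3 (0.01 ± 0.17) and Pcdhgc5 (-0.11 ± 0.11) had wider ones.

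The VGAT;NuTRAP batches gave unlike results. In the second batch alone (6 Young and 6 Old), 4 members passed, Pcdhb9 (0.93 ± 0.11 log2, adjusted p = 0.000115 by edgeR), Pcdhb14 (0.62 ± 0.10, adjusted p = 0.00353), Pcdhb22 (0.46 ± 0.10, adjusted p = 0.0365) and Pcdhb20 (0.60 ± 0.13, adjusted p = 0.0491), against 0.23% of all genes tested. All 22 beta members were higher in Old there (median 0.51 log2), and 8 of them did not overlap between the ages (Pcdhb6, Pcdhb7, Pcdhb8, Pcdhb9, Pcdhb13, Pcdhb14, Pcdhb19 and Pcdhb22), against 0.378% of the genes tested. In the first batch, with 4 Young and only 2 Old libraries, 0 members passed and 17 of 22 beta members were higher (median 0.20 log2). The 24-month female gave 1 of those 2 Old libraries. Pcdhb9 (0.75 ± 0.16 log2), Pcdhb13 (0.59 ± 0.25) and Pcdhb14 (0.42 ± 0.21) kept their direction there, whereas Pcdhb17 was at -0.47 ± 0.18. Dopamine neuron markers also differed by batch in these GABA libraries. With age, 6 of 6 were higher in the second batch (median 0.39 log2, 6 at an unadjusted p below 0.05) and 0 of 6 in the first (median -0.27 log2), and their part in the beta values was not tested.

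The same comparison in dopamine neurons gave 0 members past the adjusted threshold in either direction (edgeR, 14889 genes tested), and 1 gene in all was higher in Old (0.00672%). By DESeq2 the number of members was also 0. At an unadjusted p below 0.05, 5 members passed, of which 3 were beta, 1 alpha and 1 gamma, against 5.28% of all genes. By estimate, 19 of 22 beta genes were higher in Old DAT;NuTRAP mice with a median of 0.42 log2, 17 of 21 gamma genes with a median of 0.24 log2 and 5 of 12 alpha genes with a median of -0.17 log2. Among all genes tested 50.7% were higher, with a median of 0.00. The batches differed in this. Of first-batch estimates alone, 17 of 22 beta genes (median 0.12 log2), 10 of 21 gamma genes (median -0.02) and 7 of 12 alpha genes (median 0.05) were higher in Old. In the second batch alone 19 of 21 beta genes (median 0.68 log2), 14 of 19 gamma genes (median 0.51) and 5 of 11 alpha genes (median -0.10) were higher.

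Pcdhb9 again had the smallest p. It spanned 5.40 to 24.5 CPM (median 13.4) in the 10 Young DAT;NuTRAP libraries and 12.7 to 29.2 CPM (median 22.1) in the 9 Old, and the groups overlapped broadly. The difference was 0.64 ± 0.18 log2 (adjusted p = 0.585 by edgeR). It was 0.20 ± 0.12 log2 in the first batch and 0.97 ± 0.28 log2 in the second. Pcdhb7 spanned 4.19 to 11.8 CPM in Young and 5.94 to 13.3 CPM in Old (0.51 ± 0.22 log2, with 0.27 ± 0.21 in the first and 0.69 ± 0.35 in the second batch). Pcdhb5 spanned 0.110 to 9.95 and 7.10 to 14.7 CPM (0.83 ± 0.37 log2, with 0.46 ± 0.28 and 1.11 ± 0.57 by batch). Pcdhb15, at 1.71 ± 1.16 CPM in Young and 3.56 ± 1.94 CPM in Old, had a large estimate with a large error (1.13 ± 0.58 log2). Pcdhb14, which rose in GABA neurons, had an estimate of 0.42 ± 0.40 log2 here, and Pcdhb13 one of -0.16 ± 0.33 log2.

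The median standard error of the age difference was 0.68 log2 for alpha, 0.37 for beta and 0.55 for gamma members in DAT;NuTRAP, and 0.16, 0.14 and 0.17 in VGAT;NuTRAP. Within the first batch these errors were 0.25, 0.24 and 0.27 log2 in DAT;NuTRAP against 0.31, 0.24 and 0.28 in VGAT;NuTRAP, and within the second 1.41, 0.69 and 1.09 log2 against 0.19, 0.15 and 0.20. The larger errors over both batches thus came with the second. Pcdha2 spanned 0.989 to 8.79 CPM (median 3.32) in Young and 1.34 to 15.9 CPM (median 7.48) in Old DAT;NuTRAP libraries (0.99 ± 0.37 log2). The highest value was that of Old female DAT;NuTRAP library 2, 1 of the 4 libraries with the fewest genes counted, and without it the difference was 0.49 log2. By batch it was 0.31 ± 0.19 log2 in the first and 1.51 ± 0.71 in the second. Pcdha3 was at 5.88 ± 3.19 and 8.61 ± 3.05 CPM (0.55 ± 0.28 log2, with 0.35 ± 0.24 and 0.71 ± 0.50 by batch), Pcdha7 at 1.61 ± 1.71 and 2.78 ± 1.87 CPM (0.90 ± 0.77 log2) and Pcdha5 at 2.88 ± 2.32 and 3.98 ± 2.09 CPM (0.67 ± 0.60 log2). The alpha median itself turned from -0.17 to 0.20 log2 with a minimum count of 30, to 0.12 without the 4 libraries with the fewest genes counted and to 0.01 without the batch term. In the gamma cluster Pcdhga2 spanned 1.95 to 10.6 CPM (median 6.09) in Young and 3.49 to 13.3 CPM (median 7.51) in Old (0.55 ± 0.26 log2, with 0.28 ± 0.21 and 0.76 ± 0.51 by batch). Pcdhgb4 was at 1.99 ± 1.88 and 3.11 ± 1.46 CPM and Pcdhga5 at 4.92 ± 3.83 and 7.10 ± 4.38 CPM. Of the C-type genes, Pcdhac2 had an estimate of -0.02 ± 0.16 log2, Pcdhgc4 of 0.23 ± 0.20, Pcdhgc5 of 0.37 ± 0.50, Pcdhgc3 of -0.18 ± 0.52 and Pcdhac1 of -0.47 ± 0.82. With 1 library left out, Pcdhgc3 reached 0.09 (without Young female DAT;NuTRAP library 5), Pcdhac1 -0.96 (without Old female library 3) and Pcdhgc5 0.19 (without Young female library 5). By batch, Pcdhgc3 was at 0.84 ± 0.27 log2 in the first and -0.95 ± 0.92 in the second, and Pcdhgc5 at -0.44 ± 0.27 and 0.97 ± 1.12.

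**Figure D2:**
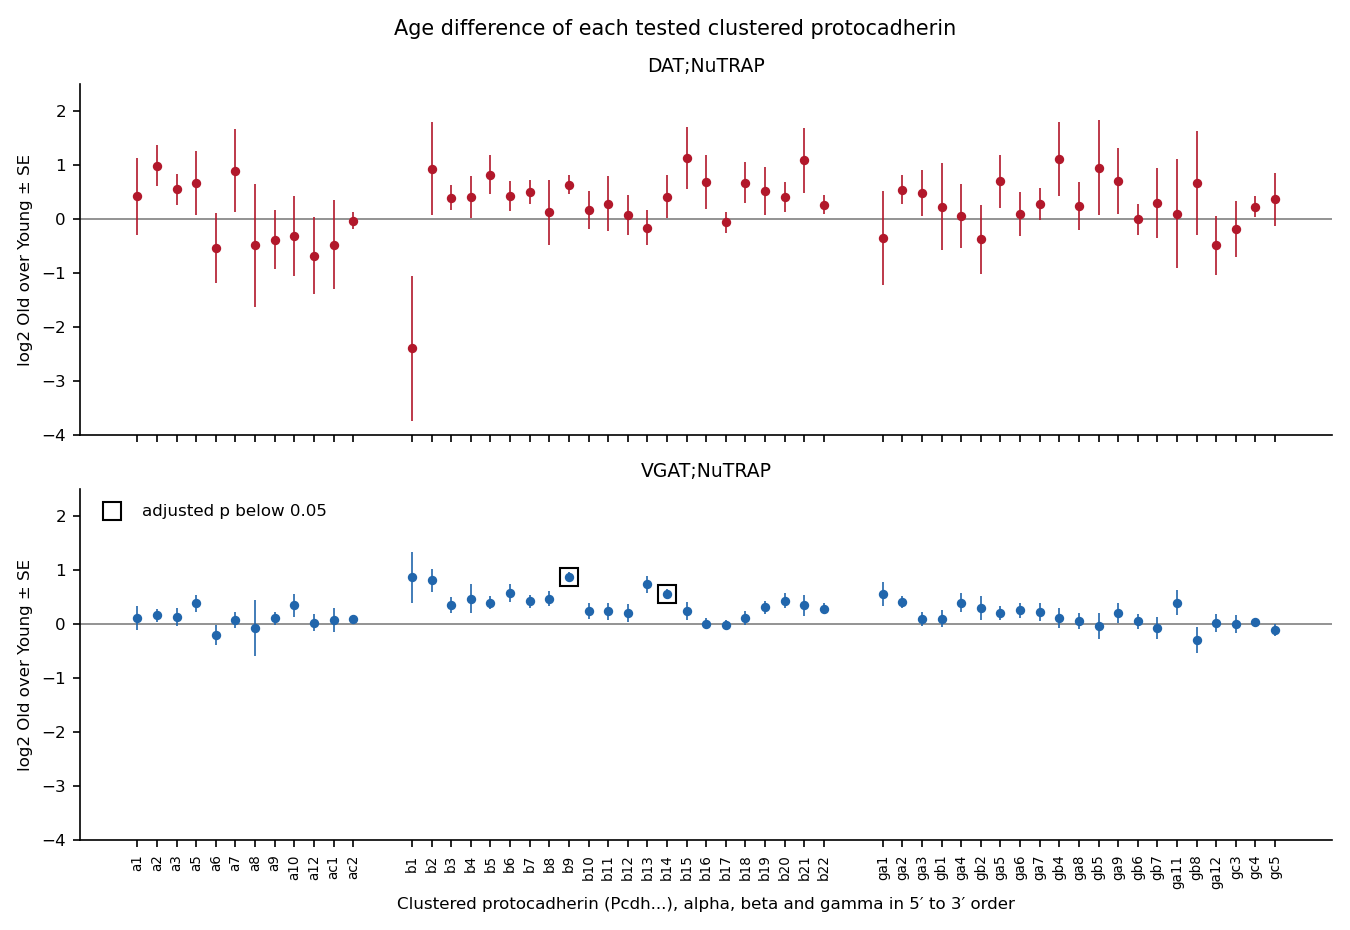
Difference between Old and Young (log2, Old minus Young) with its standard error for each tested member in the order of the genes along each cluster, for DAT;NuTRAP (upper panel) and VGAT;NuTRAP (lower panel) libraries, with squares round members past the threshold. Beta genes lie mostly above 0 in both models (19 and 21 of 22), and Pcdhb9 and Pcdhb14 in VGAT;NuTRAP are the members with an adjusted p below 0.05.

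Summed over each cluster, the libraries showed the same division by batch. The beta cluster held 98.5 to 114 CPM in the 6 Young and 150 to 175 CPM in the 5 Old second-batch DAT;NuTRAP libraries, which did not overlap, and 164 to 207 CPM in the 4 Young and 177 to 220 CPM in the 4 Old first-batch libraries, which did. In second-batch VGAT;NuTRAP libraries it held 161 to 192 CPM in Young and 230 to 268 CPM in Old, again without overlap. In the first batch it held 159 to 221 CPM in Young, and 183 and 247 CPM in the 2 Old libraries. The alpha cluster of VGAT;NuTRAP held 84.3 ± 7.25 CPM in Young and 90.9 ± 4.59 CPM in Old, and the gamma cluster 135 ± 14.7 and 152 ± 19.1 CPM. In first-batch DAT;NuTRAP libraries the alpha cluster held 90.9 ± 8.33 CPM in Young and 96.8 ± 7.95 CPM in Old, and in the second batch 31.5 ± 4.63 and 36.6 ± 8.61 CPM. The gamma cluster held 145 ± 11.2 and 148 ± 21.5 CPM in the first batch. In the second it held 42.0 to 59.1 CPM (47.7 ± 6.18) in Young and 54.1 to 82.9 CPM (65.1 ± 12.6) in Old, with overlap.

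**Figure D3:**
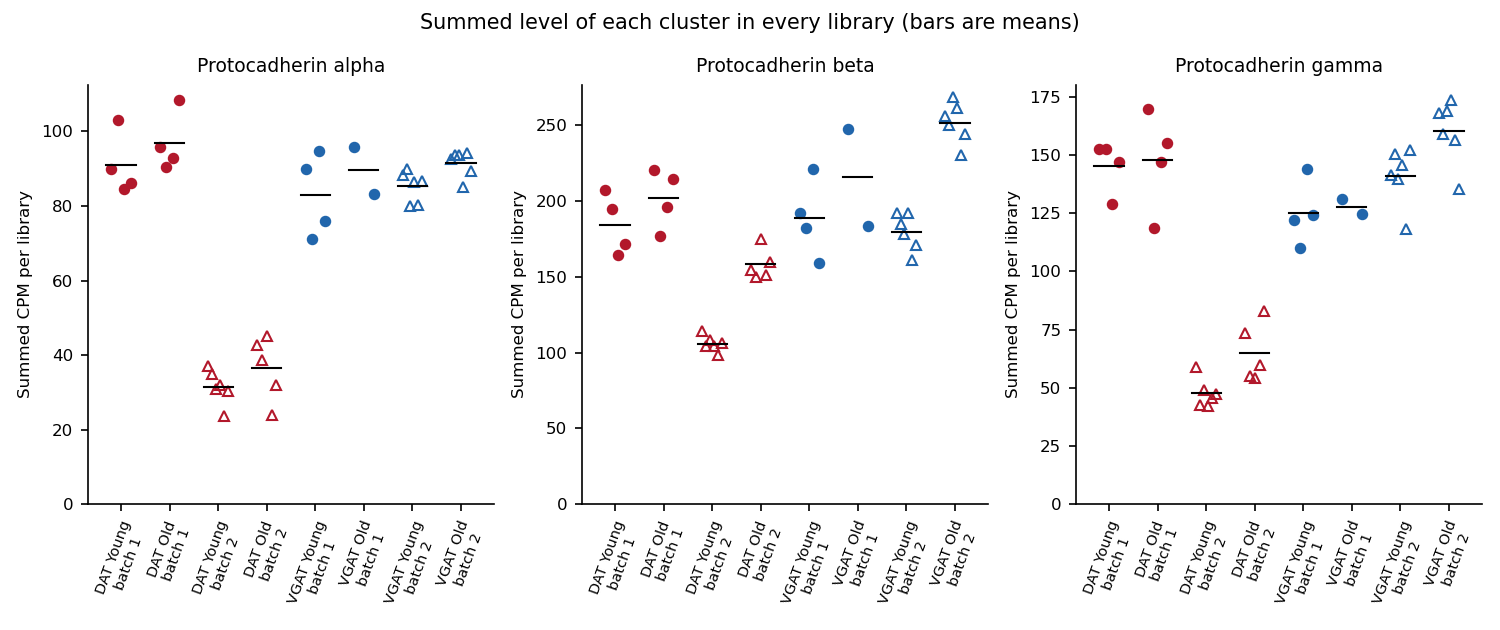
Summed CPM of the alpha, beta and gamma clusters in each library, by model, batch and age (circles, first batch; triangles, second batch; bars, group means). In the second batch of both models the Old beta sums lie above all Young ones, while alpha and gamma sums of DAT;NuTRAP fall into a high first-batch and a low second-batch group.

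**Figure D4:**
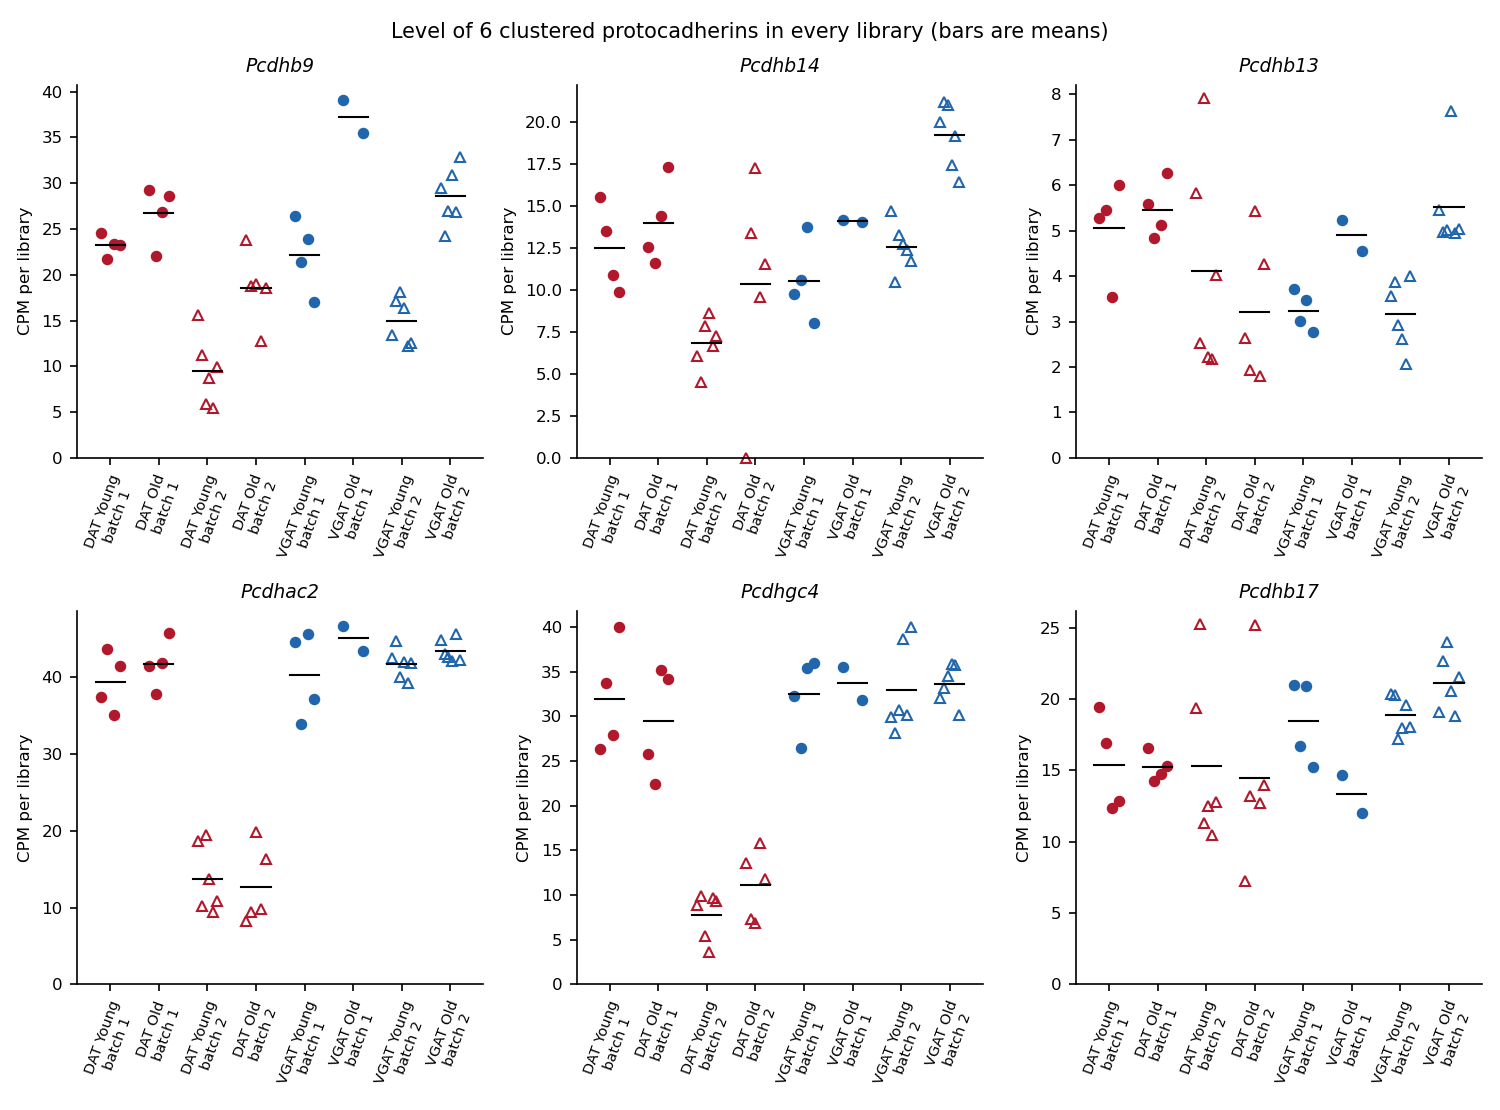
CPM of Pcdhb9, Pcdhb14, Pcdhb13, Pcdhac2, Pcdhgc4 and Pcdhb17 in each library, by model, batch and age (circles, first batch; triangles, second batch; bars, group means). Pcdhb9 and Pcdhb14 are higher in Old than Young VGAT;NuTRAP libraries with a small overlap, and Pcdhac2 and Pcdhgc4 are divided by batch within DAT;NuTRAP.

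The ages were also compared between cell types. The age comparisons of the 2 models share no libraries. Among the tested members, 19 of 22 beta genes were higher in Old mice of both models, 1 was lower in both (Pcdhb17) and 2 had opposite signs (Pcdhb1 and Pcdhb13). For gamma genes the numbers were 13, 0 and 8 of 21, and for alpha genes 5, 2 and 5 of 12. The difference between the age effects was tested by an interaction term, and 0 members passed (0% of 16898 genes), by edgeR or by DESeq2. At an unadjusted p below 0.05, 1 member passed by edgeR, against 2.76% of all genes, and 2 by DESeq2. The median difference, DAT;NuTRAP minus VGAT;NuTRAP, was -0.22 log2 for alpha, -0.06 for beta and 0.01 for gamma genes. Pcdhb13, with -0.91 ± 0.35 log2, had an unadjusted p of 0.0130 and an adjusted p of 1.00 by edgeR, and Pcdhb9 a difference of -0.29 ± 0.22 log2. A difference in age response between dopamine and GABA neurons was therefore not detectable for any member at this precision.

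Both sexes were examined separately in the same fit. Pcdhb9 rose with age in VGAT;NuTRAP females (0.73 ± 0.11 log2, adjusted p = 0.00659 by edgeR) and in males (1.10 ± 0.13 log2, adjusted p = 0.000147 by edgeR), and was the member that passed in either sex. The call in females was lost (0 members) without Old female VGAT;NuTRAP library 1, without the batch term and with the replicate number as a block. That library was of the 24-month mouse and had the highest Pcdhb9 level of all libraries (39.1 CPM). The background was 0.0116% of genes higher in Old females and 0.0349% in Old males. The difference between the sexes, 0.37 ± 0.17 log2 (male minus female), did not pass (adjusted p = 0.967 by edgeR), nor did that of any other member (0% of genes), by edgeR or DESeq2, and 2 members had an unadjusted p below 0.05, against 5.09% of all genes. In DAT;NuTRAP 0 members passed in females (0.00604% of genes) or males (0%), and 0 had an effect that differed by sex (0%). By DESeq2 these counts were 0 too, and at an unadjusted p below 0.05 edgeR gave 6 of 55 members in females, 3 in males and 2 for the difference, against 6.55%, 3.5% and 4.25% of all genes. Median estimates of the beta genes were 0.39 log2 in females and 0.31 in males of VGAT;NuTRAP, and 0.37 and 0.47 in DAT;NuTRAP. The summed beta cluster of VGAT;NuTRAP females was at 191 ± 15.3 CPM in Young (SD, n = 6) and 256 ± 8.37 CPM in Old (SD, n = 5), and that of males at 171 ± 15.0 CPM (SD, n = 4) and 219 ± 31.8 CPM (SD, n = 3).

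Markers of astrocytes, microglia and oligodendrocytes also had mostly higher estimates in Old mice. Astrocyte markers had higher estimates in Old mice for 10 of 10 genes in DAT;NuTRAP (median 0.32 log2) and 9 of 10 in VGAT;NuTRAP (median 0.29 log2). By edgeR 0 of them passed the adjusted threshold, and 5 and 6 had an unadjusted p below 0.05. Their summed level spanned 1035 to 2400 CPM in Young and 1370 to 3160 CPM in Old DAT;NuTRAP libraries, and 973 to 1221 and 1017 to 1535 CPM in VGAT;NuTRAP. Microglial markers were higher for 9 of 10 genes in DAT;NuTRAP and 7 of 10 in VGAT;NuTRAP, and oligodendrocyte markers for 6 of 6 in both (medians 0.34 and 0.27 log2). The part of these cells in the protocadherin values was not tested.

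The second question was how the clusters differed between cell types. Over all libraries, with batch as a term in the fit, 31 of 55 tested members were lower in DAT;NuTRAP than in VGAT;NuTRAP and 0 were higher (edgeR, adjusted p below 0.05), against 30.4% of all genes lower and 30% higher. The 31 were 6 of 12 alpha, 13 of 22 beta and 12 of 21 gamma members. Median differences were -0.93 log2 for alpha, -0.53 for beta and -0.85 for gamma genes, beside 0.01 for all genes. First-batch libraries alone gave 8 members higher and 4 lower, against 21.5% and 22.4% of all genes. Without the 4 DAT;NuTRAP libraries with the fewest genes counted, 36 members were lower and 0 higher. Astrocyte markers were higher in DAT;NuTRAP for 9 of 10 genes and oligodendrocyte markers for 6 of 6, and their part in these values was not tested.

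Pcdhac2 was lower in DAT;NuTRAP, with a difference of -1.10 ± 0.17 log2, and so was Pcdhgc4, with -1.22 ± 0.19 log2 (adjusted p = 4.72e-07 and 8.61e-07 by edgeR). Pcdhac2 spanned 35.1 to 45.8 CPM (median 41.5) in first-batch and 8.20 to 19.9 CPM (median 10.8) in second-batch DAT;NuTRAP libraries, and 33.9 to 46.7 CPM over all VGAT;NuTRAP libraries. Pcdhgc4 spanned 22.5 to 39.96 CPM (median 30.8), 3.61 to 15.8 CPM (median 9.38) and 26.5 to 39.97 CPM in the same order. For both genes the first-batch dopamine libraries overlapped the GABA libraries and the second-batch ones lay wholly below them.

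Further alpha members that were lower in DAT;NuTRAP were Pcdha10 (-1.55 ± 0.41 log2), Pcdha7 (-1.46 ± 0.44), Pcdha12 (-1.29 ± 0.41) and Pcdhac1 (-1.28 ± 0.41). In the same order their levels were 2.86 ± 0.852, 3.87 ± 1.31, 4.09 ± 0.783 and 2.31 ± 0.811 CPM in first-batch DAT;NuTRAP (SD, n = 8) and 0.635 ± 0.513, 0.926 ± 0.934, 1.24 ± 1.33 and 0.905 ± 0.892 CPM in the second batch (SD, n = 11). Over all VGAT;NuTRAP libraries they were at 3.15 ± 1.10, 4.14 ± 0.680, 4.51 ± 0.937 and 3.05 ± 1.03 CPM (SD, n = 18). Within the first batch, per kb of unshared exon, they were at 1.14, 1.81, 2.10 and 0.901 CPM per kb in DAT;NuTRAP. First-batch VGAT;NuTRAP libraries had 1.12, 2.01, 2.10 and 1.43 CPM per kb, so that Pcdha10 and Pcdha12 were at like levels in both models there. Each was thus lower in second-batch than in first-batch dopamine libraries.

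Beta members lower in DAT;NuTRAP included Pcdhb16 (-1.40 ± 0.29 log2), Pcdhb19 (-1.26 ± 0.28), Pcdhb18 (-1.01 ± 0.22) and Pcdhb10 (-0.83 ± 0.18). Pcdhb16 was at 6.03 ± 1.76 and 2.60 ± 2.20 CPM in the first and second batch of DAT;NuTRAP, against 8.11 ± 1.19 and 9.74 ± 1.14 CPM in VGAT;NuTRAP. Pcdhb19 was at 8.93 ± 2.44 and 3.28 ± 1.78 CPM in DAT;NuTRAP, against 10.3 ± 2.06 and 11.6 ± 2.39 CPM, Pcdhb18 at 5.56 ± 0.726 and 3.18 ± 2.59 CPM, against 6.05 ± 1.28 and 8.56 ± 1.49 CPM, and Pcdhb10 at 5.24 ± 1.10 and 2.71 ± 1.37 CPM, against 7.45 ± 1.20 and 5.49 ± 1.47 CPM. All 4 had lower means in DAT;NuTRAP within each batch, and Pcdhb10 was called lower in both. Gamma members included Pcdhgc5 (-1.38 ± 0.36 log2), Pcdhgb6 (-0.91 ± 0.23) and Pcdhga2 (-0.85 ± 0.18). In the first and second batch, Pcdhgc5 was at 6.90 ± 2.24 and 1.84 ± 1.34 CPM in DAT;NuTRAP, against 5.66 ± 0.663 and 8.86 ± 1.20 CPM in VGAT;NuTRAP. Pcdhgb6 was at 8.52 ± 1.32 and 2.77 ± 1.26 CPM, against 6.30 ± 1.43 and 8.63 ± 1.73 CPM, and Pcdhga2 at 10.1 ± 2.35 and 4.99 ± 2.55 CPM, against 9.55 ± 1.55 and 12.6 ± 3.29 CPM. The other 24 members passed in neither direction. Among them were Pcdhb7 (0.06 ± 0.13), Pcdhb13 (0.02 ± 0.18), Pcdhgc3 (-0.09 ± 0.29) and Pcdha3 (0.21 ± 0.19), of which Pcdhgc3 and Pcdha3 passed as higher in the first batch alone. Pcdhb7 was at 9.74 ± 2.26 and 8.89 ± 3.57 CPM in the 2 batches of DAT;NuTRAP and at 8.73 ± 1.25 and 8.64 ± 2.11 CPM in those of VGAT;NuTRAP. Pcdha3 spanned 5.60 to 12.8 CPM in the first and 0.980 to 10.7 CPM in the second batch of DAT;NuTRAP, against 3.89 to 7.51 and 3.99 to 8.63 CPM, so that its highest values were those of first-batch dopamine libraries.

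Within the first batch alone (8 DAT;NuTRAP and 6 VGAT;NuTRAP libraries), 8 members were higher in DAT;NuTRAP and 4 lower, against 21.5% and 22.4% of all genes. Those higher were Pcdha3 (0.88 ± 0.20 log2), Pcdhgb7 (0.87 ± 0.30), Pcdhgc3 (0.75 ± 0.20), Pcdha5 (0.71 ± 0.20), Pcdhga8 (0.63 ± 0.17), Pcdhb6 (0.55 ± 0.20), Pcdhgb6 (0.44 ± 0.16) and Pcdhga3 (0.44 ± 0.15). Those lower were Pcdhac1 (-0.70 ± 0.27), Pcdhb10 (-0.54 ± 0.17), Pcdhb11 (-0.52 ± 0.18) and Pcdhb8 (-0.40 ± 0.14). Median differences were 0.14 log2 for alpha, -0.04 for beta and 0.27 for gamma genes. Within the second batch alone (11 and 12 libraries), 38 members were lower and 0 higher, against 30.3% of all genes lower, with medians of -1.51, -0.79 and -1.55 log2. In that batch 9 members did not overlap between the models, against 12.8% of all genes. They were Pcdha7, Pcdha9, Pcdha10, Pcdhac2, Pcdhb16, Pcdhb19, Pcdhgb6, Pcdhgc4 and Pcdhgc5. All 55 members had a lower difference in the second than in the first batch, 1 alpha and 4 gamma members passed in opposite directions in the 2 batches, and 1 alpha and 2 beta members passed as lower in both.

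**Figure D5:**
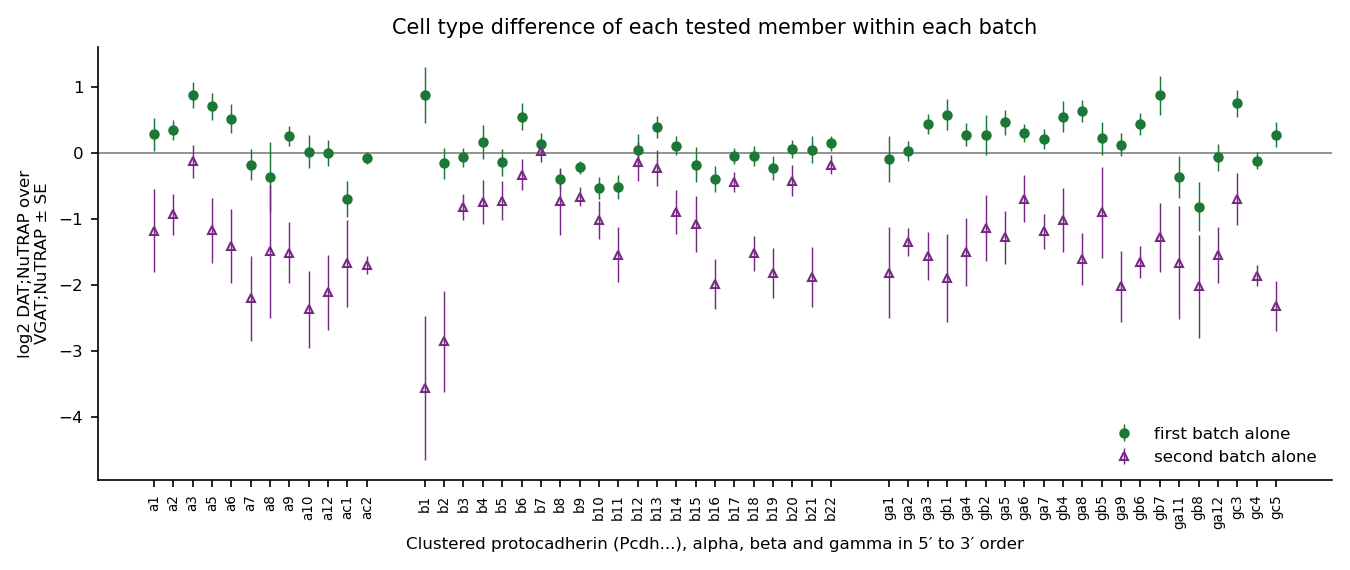
Difference between models (log2, DAT;NuTRAP minus VGAT;NuTRAP) of each tested member within the first and within the second batch. First-batch values scatter around 0 and second-batch values lie below them for all 55 members.

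The difference between the batches was itself tested. An interaction of cell type and batch passed for 25 of 55 members (7 alpha, 5 beta and 13 gamma), all lower in the second batch, against 16.4% of all genes, with medians of -1.69 log2 for alpha, -0.78 for beta and -1.68 for gamma genes. Pcdhac2 differed by -1.63 ± 0.19 log2 and Pcdhgc4 by -1.75 ± 0.23 log2. Within DAT;NuTRAP, 37 members were lower in the second than the first batch, against 21.8% of all genes, and 0 of 55 estimates were higher. Within VGAT;NuTRAP, Pcdhb9 was the 1 member lower (-0.50 ± 0.16 log2, adjusted p = 0.0289 by edgeR), against 6.08% of all genes, and the medians were 0.05, 0.10 and 0.31 log2. Not every gene followed the dopamine batches. Pcdhb17 was at 15.3 ± 2.31 CPM in the first and 14.9 ± 5.85 CPM in the second batch of DAT;NuTRAP. Oligodendrocyte markers moved the other way, with a sum of 497 to 761 CPM in first-batch and 1108 to 2303 CPM in second-batch DAT;NuTRAP libraries, and 6 of 6 passed as higher. Astrocyte markers passed as higher for 8 of 10 genes. What the batch label stands for is not given in the sources used here, and its part and that of the marker genes were not tested.

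By age, 20 members were lower in DAT;NuTRAP among Young mice (25.4% of all genes) and 18 among Old mice (24.1%). Without the batch term the numbers were 9 and 2 members in either direction. Within the first batch 3 members were higher in DAT;NuTRAP (15.8% of all genes) and 0 lower (16.4%) among Young mice, namely Pcdha5 (0.92 ± 0.25 log2), Pcdha6 (0.90 ± 0.28) and Pcdhb13 (0.64 ± 0.21). Among Old mice 3 were higher (12.9%), namely Pcdhgc3 (1.28 ± 0.32), Pcdha3 (1.23 ± 0.32) and Pcdhga8 (0.78 ± 0.26), and 3 lower (14.9%), namely Pcdhb11 (-0.91 ± 0.28), Pcdhb8 (-0.62 ± 0.22) and Pcdhb9 (-0.49 ± 0.15). The difference between ages is the interaction given above, which no member passed.

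Genes outside the clusters were read in lists by role. Non-clustered delta protocadherins, which have related adhesive domains but lie apart as single genes, had 10 of 11 members tested. With age, 0 passed in either model by edgeR (1 in each at an unadjusted p below 0.05), with medians of 0.07 log2 in DAT;NuTRAP and -0.01 in VGAT;NuTRAP. Between cell types 7 were lower in DAT;NuTRAP and 1 higher (median -0.60 log2), against 30.4% and 30% of all genes. Among those lower were Pcdh11x (-2.63 ± 0.21), Pcdh7 (-1.64 ± 0.08) and Pcdh9 (-1.32 ± 0.09). In the first batch alone 4 passed as lower and 4 as higher, against 22.4% and 21.5% of all genes. In the second 9 passed as lower, against 30.3% of all genes, and 1 as higher.

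Genes of protocadherin promoter choice and silencing, including CTCF, cohesin and DNA methyltransferases, had 25 of 26 members tested, and 0 passed with age in either model by edgeR (0 and 1 at an unadjusted p below 0.05, median 0.00 log2 in both). Between cell types 20 were lower in DAT;NuTRAP and 2 higher (median -0.54 log2), against 30.4% and 30% of all genes. The difference was -1.40 ± 0.12 log2 for Pds5b, a cohesin regulator, -0.82 ± 0.08 for Dnmt1, the maintenance DNA methyltransferase, and -0.78 ± 0.08 for Dnmt3a, a de novo methyltransferase. Lower and higher members were 8 and 2 in the first batch alone, against 22.4% and 21.5% of all genes. They were 20 and 1 in the second, where 30.3% of all genes were lower. Of 27 genes for partners and signalling of protocadherins, 0 passed with age by edgeR (2 and 1 at an unadjusted p below 0.05). Between cell types 12 of them were lower and 6 higher (median -0.08 log2), against 30.4% and 30% of all genes. Ret, a receptor tyrosine kinase of dopamine neurons, was at 2.31 ± 0.10 log2. By batch, 7 of these partner genes were lower and 9 higher in the first, and 14 and 7 in the second, beside the same shares of all genes.

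Other genes that lie beside the clusters on the chromosome were also read. Of 14 neighbours tested, 0 passed with age in either model by edgeR, also at an unadjusted p below 0.05, with a median of 0.05 log2 in both. Between cell types 7 of 16 were higher in DAT;NuTRAP and 2 lower (median 0.28 log2), against 30% and 30.4% of all genes. In the first batch alone 3 were higher and 0 lower (median 0.08 log2), against 21.5% and 22.4% of all genes. In the second 7 were higher and 2 lower (median 0.45 log2), where 30.3% of all genes were lower. Fchsd1 was higher by 1.77 ± 0.08 log2 and Ndufa2, a subunit of mitochondrial complex I, by 0.81 ± 0.09 log2.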

How the data were processed

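Tagged ribosomes were pulled down from ventral midbrain and RNA libraries (poly-A selected, directional) were sequenced by the authors, who aligned reads with STAR 2.7.10b to GRCm39 (mm39) and counted them per gene with featureCounts. The deposited values are whole-number counts per gene, 1 table per model, before the authors' removal of low counts and glial genes and their batch correction. The featureCounts version, strand setting and annotation are not given in the sources used here, so reads from overlapping antisense genes cannot be told apart. Gene structures came from GENCODE M39, which held 56620 of 57180 gene IDs and all 58 members.

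Counts were normalised by TMM and tested with edgeR 4.0.16 (quasi-likelihood, robust, R 4.3.3) after filterByExpr (minimum count 10), with Benjamini-Hochberg adjustment over all genes tested, a threshold of 0.05 and batch as a term. Errors of log2 differences are standard errors and those of CPM are SD between libraries. Age was fitted within each model, and cell type over all 37 libraries in 4 groups of model by age, which took batch labels as shared by both models. Alternatives were DESeq2 1.42.0, other filters and scalings, fits without batch or with sex, single batches, the replicate number as a block and each library left out. The cell type fit was also run with a batch term separate for each model. The fits were tested on simulated counts that held 2-fold changes but no batch difference. They recovered 70.3% of the changes for age in DAT;NuTRAP, 79.3% in VGAT;NuTRAP and 71.1% for cell type. False calls were 3.70 to 4.83% of all calls. The simulation cannot show how the fits behave where batches differ. Each library came from its own mouse, and no 2 differed by less than sampling noise (lowest chi-square per degree of freedom 5.46 over 70 pairs). Members and lists were chosen with earlier results of these data known. Values are given for the 4 members of each cluster with the smallest p in each age and cell type comparison, the 5 C-type genes and the highest and lowest member, and other members may be named. Base sequences were not used here.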

Additional observations from a re-analysis of the deposited data

Results flagged for a closer look

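Of 128 groups of 4 to 10 libraries examined, 5 held 1 library apart from the rest by Dixon's criterion, which chance gives for about 1 in 20 groups. The summed beta cluster was at 183.4 CPM in the Old male VGAT;NuTRAP library 1, against 229.8 to 268 CPM in the other Old libraries, and Pcdhb19 was at 7.588 CPM in the same library, against 12.13 to 15.9. Pcdhb13 was at 7.636 CPM in the Old female VGAT;NuTRAP library 5, against 4.562 to 5.449 in the others. Pcdhb14 was at 0 CPM in the Old female DAT;NuTRAP library 2, against 9.551 to 17.34, and that library was 1 of the 4 with counts for the fewest genes. Pcdhb15 was at 5.473 CPM in the Young male VGAT;NuTRAP library 2, against 2.689 to 4.107.

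The difference between DAT;NuTRAP and VGAT;NuTRAP itself differed between the batches for 25 members, by an interaction term at an adjusted p below 0.05 (edgeR).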

How the results depend on the processing

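The 2 members called with age in VGAT;NuTRAP became 4 by DESeq2 (Pcdhb13, adjusted p = 0.00457, and Pcdhb2, adjusted p = 0.0388, were added), 3 with sex as a term (Pcdhb2, adjusted p = 0.0326), 4 in the second batch alone, 0 in the first batch alone and 0 without the batch term, where the adjusted p of Pcdhb9 and Pcdhb14 was 0.0731. Leaving out 1 library gave 1 to 2. It was 1 without Old female VGAT;NuTRAP library 3 (Pcdhb14, adjusted p = 0.0513) or Young female library 5 (adjusted p = 0.0600). In VGAT;NuTRAP females the 1 call became 2 by DESeq2, 3 with no count filter, 0 without the batch term and 0 to 2 with 1 library left out. It was 0 without Old female library 1, that of the 24-month mouse, and 2 without Old male library 2 or Young male library 2 or 3. In males it became 2 by DESeq2 and 2 with no filter. The count over all genes for age was 1 in DAT;NuTRAP and 13 by DESeq2, and 4 in VGAT;NuTRAP and 23 by DESeq2. The 31 members called between cell types were all lower in DAT;NuTRAP. In the first batch alone 12 were called, of which 4 were lower and the rest higher. There Pcdha10 (0.021), Pcdhga2 (0.025), Pcdhgb6 (0.44), Pcdhgc3 (0.75) and Pcdhgc5 (0.28) changed sign. With a batch term separate for each model, Pcdha10 was at -1.20 log2 (-1.55 with the shared term) and Pcdhb2 at -1.51 (-1.90). Pcdhgc3 was at 0.11 (-0.09), and Pcdhac2 and Pcdhgc4 still passed (adjusted p = 3.44e-11 and 7.95e-10 by edgeR). That fit averages the difference over both batches, and neither Pcdhac2 nor Pcdhgc4 passed in the first batch alone. The 20 lower in Young became 9 in either direction without the batch term. In the first batch 3 were called in Young, all of them higher in DAT;NuTRAP. The 18 lower in Old became 2 in either direction without the batch term. In the first batch 6 were called in Old, 3 higher and 3 lower. The causes were not tested. The median age difference of the beta cluster spanned 0.39 to 0.48 log2 in DAT;NuTRAP and 0.34 to 0.46 in VGAT;NuTRAP with 1 library left out, but was 0.12 and 0.68 in the first and second batch of DAT;NuTRAP and 0.20 and 0.51 in those of VGAT;NuTRAP. Without the 4 DAT;NuTRAP libraries with counts for under 16000 genes, chosen after seeing the data, it was 0.34 log2 in DAT;NuTRAP, and the alpha median turned from -0.17 to 0.12. Replicate numbers did not pair the libraries (median correlation of same-numbered deviations -0.02 in DAT;NuTRAP and -0.06 in VGAT;NuTRAP). With the replicate number as a block, the calls were 2 with age in VGAT;NuTRAP, 0 in DAT;NuTRAP, 0 in VGAT;NuTRAP females and 29 between cell types. Second-batch DAT;NuTRAP libraries had counts for fewer genes than first-batch ones, at a higher median total count (3.02e+07 against 1.85e+07). Their larger standard errors limit what can be said of age in dopamine neurons.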
